A study of Mus musculus with 9 samples.

Results

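The 10 genes described here carry the MHC class II pathway of antigen presentation in the mouse. They were chosen by name, as Ciita and the genes it is known to switch on, from the 50686 genes counted in each library, and all 10 were found in the tables. The libraries were made from bone marrow cells transformed with the BCR/ABLp185 oncogene and measured by sequencing of polyadenylated RNA. The study compared 3 genotypes on the C57BL/6N background: wild-type (wt), Stat5a-deficient (Stat5a-/-, labelled STAT5A-ko) and Stat5b-deficient (Stat5b-/-, labelled STAT5B-ko). STAT5A and STAT5B are closely related transcription factors that act downstream of the BCR/ABL kinase, and the comparison asks which transcripts depend on each of them. Every line carried BCR/ABLp185, every line was grown in RPMI medium with fetal calf serum, 2-mercaptoethanol, penicillin and streptomycin, and the labels name no treatment. Each genotype was represented by 1 cell line with 3 technical replicates, so a difference between genotypes cannot be told apart from a difference between lines, and every p-value measures only the spread between technical replicates.

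MHC class II molecules are pairs of an alpha and a beta chain that carry peptides from ingested proteins to the cell surface, where CD4+ T cells read them. B cells, dendritic cells and macrophages make them constitutively, and many other cells make them after interferon-gamma. The coactivator CIITA does not bind DNA itself but docks on a fixed set of factors (RFX, CREB and NF-Y) at the X and Y boxes of class II promoters. The invariant chain CD74 guides new class II molecules to endosomes, the DM pair then exchanges the remaining invariant chain fragment for peptide, and the DO pair restrains DM.

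The X and Y boxes are shown for the promoters in which the letters searched for were present, because CIITA docks on factors bound there. RefSeq start sites on GRCm38.p6 gave promoter windows for 7 of the 10 genes. Ciita, H2-Ab1 and Cd74 had no entry, and both windows listed for H2-DMa lie upstream of the gene model that was counted and are not printed. The window of H2-DMb2 is printed but lies inside its counted gene model, which starts at chr17:34143307. The X box core was searched as GCAAC or GTTGC and the Y box as CCAAT or ATTGG, on both strands, which can share at most 1 letter and did not overlap here. The sequences run from 110 bases before the start site to the base before it, 5′ to 3′ on the strand of the gene, with every match in capitals. They lie at chr17:34287824-34287933 for H2-Aa on the minus strand, and on the plus strand at chr17:34305757-34305866 for H2-Eb1, chr17:34092269-34092378 for H2-Oa, chr17:34238795-34238904 for H2-Ob, chr17:34153081-34153190 for H2-DMb1 and chr17:34145139-34145248 for H2-DMb2.
H2-Aa: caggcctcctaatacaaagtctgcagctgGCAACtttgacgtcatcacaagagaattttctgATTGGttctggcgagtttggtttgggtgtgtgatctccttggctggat
H2-Eb1: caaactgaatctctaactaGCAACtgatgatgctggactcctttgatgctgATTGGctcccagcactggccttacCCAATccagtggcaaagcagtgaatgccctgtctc
H2-Oa: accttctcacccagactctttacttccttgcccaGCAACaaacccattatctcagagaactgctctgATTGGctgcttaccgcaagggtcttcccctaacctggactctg
H2-Ob: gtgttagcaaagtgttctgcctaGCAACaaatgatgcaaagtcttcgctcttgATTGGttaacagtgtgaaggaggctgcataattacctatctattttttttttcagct
H2-DMb1: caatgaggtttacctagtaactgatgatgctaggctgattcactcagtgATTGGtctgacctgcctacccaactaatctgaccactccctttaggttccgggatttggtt
H2-DMb2: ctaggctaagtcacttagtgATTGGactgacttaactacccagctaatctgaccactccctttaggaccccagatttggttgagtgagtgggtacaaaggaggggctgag

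In H2-Aa, H2-Eb1, H2-Oa and H2-Ob the X box core was followed by ATTGG after 25 to 28 bases. That order, with 10 to 30 bases between, was present in 1.04% of the 32841 promoters searched, against 35.2% for an X box core and 37.4% for a Y box anywhere in the window. H2-DMb1 and H2-DMb2 held the Y box without the X box letters. The GAS element bound by STAT proteins (TTCNNNGAA) was found in the window of H2-DMb2, from 218 to 210 bases before the start site, and in 8.3% of all promoters. These matches describe letters, and binding was not measured.

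Totals of reads counted in genes ran from 11948136 to 19016396 across the 9 libraries. The targeted transcripts were checked first. Stat5a stood at 48.2, 36.0 and 45.3 normalized CPM (read counts scaled to library size) in wt and at 11.8, 11.9 and 13.6 in Stat5a-/-, and Stat5b stood at 107, 103 and 106 in wt and at 72.3, 58.5 and 59.5 in Stat5b-/-. Both fell in their own knockout, Stat5a by 1.79 (adjusted p = 4.69e-07) and Stat5b by 0.73 on the log2 scale (adjusted p = 1.69e-04), and residual reads remained. A description field calls the knockout lines wt, while their titles and genotype labels name the knockout, which these levels follow. Among fixed marker lists, B lineage transcripts summed to 5690 to 5862 normalized CPM in wt, 7296 to 7836 in Stat5a-/- and 7005 to 7665 in Stat5b-/-, both knockout lines standing above wt. Of its 13 genes, Rag1 and Rag2, the recombinase subunits, passed the filter on low counts only through wt, where Rag1 had a mean of 64.7 (0.158 in Stat5a-/- and 0.667 in Stat5b-/-). Of the other 11, 6 were higher and 2 lower in Stat5a-/- and 7 higher and 2 lower in Stat5b-/-, where 19.8% and 16.3%, and 24.2% and 22%, of all genes tested were. T-cell transcripts summed to 723.5 to 1008 in wt, 1300 to 1489 in Stat5a-/- and 1623 to 2355 in Stat5b-/-, where 15 of 16 were called higher (24.2% of all genes), against 7 of 16 in Stat5a-/- (19.8% of all genes), in which Cd2 alone went from a mean of 55.1 to 276. In bulk RNA, more cells of a type and more RNA per cell cannot be told apart.

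All 10 genes passed the filter on low counts, but Ciita did so only through the knockout lines, since 1 of 3 wt libraries reached the 0.682 CPM needed. Ciita is therefore left out of the counts and medians that follow and is described on its own. H2-Ab1 rose most in Stat5b-/-, 6.64-fold over wt, and H2-DMb1 rose most in Stat5a-/-, 5.96-fold over wt. Of the other 9 genes, the Stat5b-/- line had 8 above wt and 0 below it, where 24.2% of the 13852 genes tested were higher and 22% lower (edgeR's quasi-likelihood test, adjusted p under 0.05). In Stat5a-/- against wt, 9 were higher and 0 lower, where 19.8% of all genes tested were higher and 16.3% lower. The gene not called was H2-DMb1 in Stat5b-/-. The median log2 fold change of the 9 genes was 1.09 in Stat5b-/- and 1.46 in Stat5a-/-, beside medians of 0.0232 and 0.00986 over all genes tested. The count of 8 was 4 with a covariate for T-cell transcripts, which were also higher in that line, and 2 when tested against a log2 change of 1, where the count of 9 was 5. Both contrasts share the wt libraries. Set directly against each other, the lines differed in both directions. In Stat5b-/- 3 genes (H2-Aa, H2-Ab1, H2-Ob) stood above their Stat5a-/- level and 4 (Cd74, H2-DMa, H2-DMb1, H2-DMb2) stood below it. Of all genes, 16.4% were higher and 17.5% lower. The 669 other tested genes of chromosome 17 had a median of −0.424 in this comparison, with 41 higher and 306 lower. The 323 of chromosome 18, where Cd74 lies, had −0.476, with 24 higher and 172 lower.

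**Figure D1:**
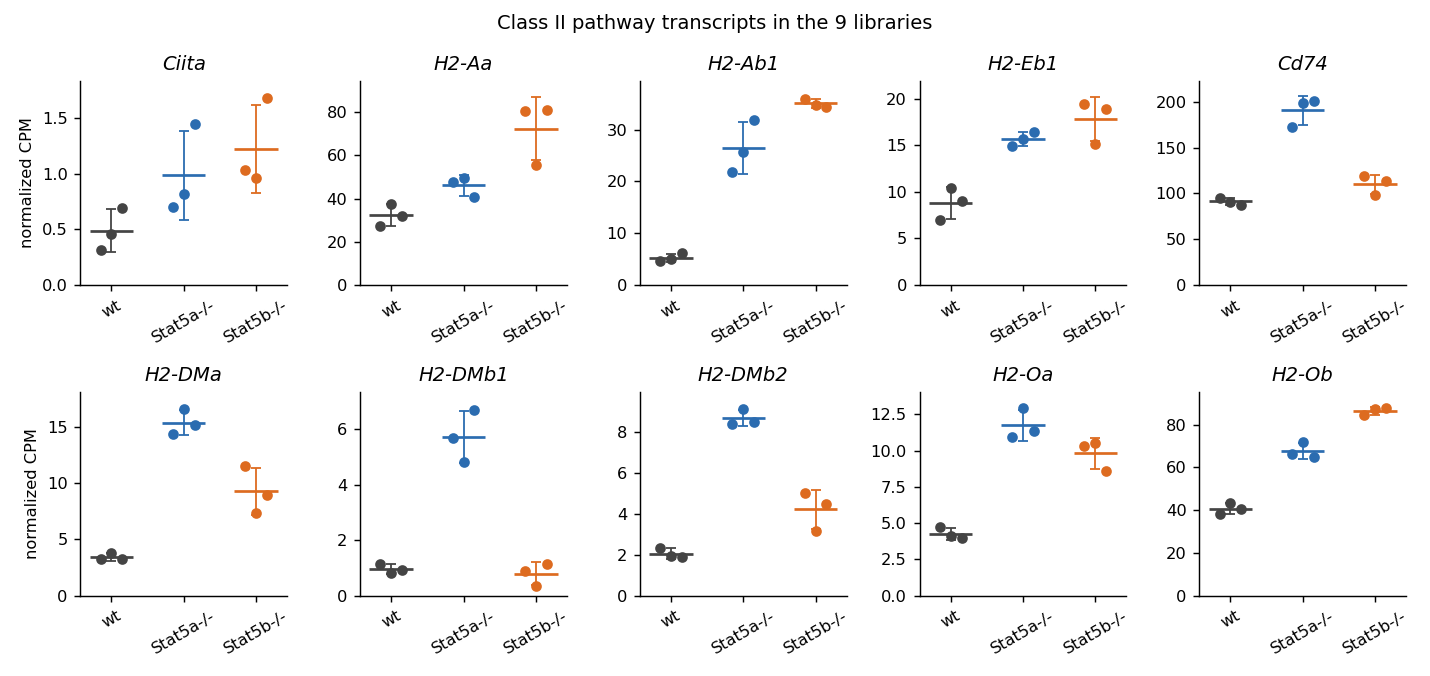
Normalized CPM (y axis, from 0, a separate scale for each gene) of the 10 genes in 3 wt, 3 Stat5a-/- and 3 Stat5b-/- libraries (points), with the mean as a line and the SD as a bar. H2-Ab1 and H2-Ob stood highest in Stat5b-/-, while Cd74, H2-DMa, H2-DMb1 and H2-DMb2 stood highest in Stat5a-/-.

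Per kilobase of exon, the order of the levels was the same at both ends in the 3 lines. Cd74 was the most abundant, at a mean of 64.7 normalized CPM per kb in wt, 135 in Stat5a-/- and 78.1 in Stat5b-/-, followed by H2-Aa at 17.2, 24.6 and 38.6 and H2-Ob at 12.9, 21.5 and 27.4. Ciita was the lowest, at 0.0929, 0.188 and 0.232. H2-Ab1 changed its place. At 3.22 per kb in wt it took place 6, with a range that overlapped that of H2-Oa (3.26), whereas at 16.2 in Stat5a-/- and 21.4 in Stat5b-/- it had moved up to place 4, overlapping H2-Eb1 (13.3) in Stat5a-/- and clear of it (15.1) in Stat5b-/-. The DM chains were low in wt, at 2.09 for H2-DMa, 1.20 for H2-DMb2 and 0.645 for H2-DMb1. Neighbours whose ranges overlapped were H2-Aa and H2-Ob in Stat5a-/-, H2-DMa and H2-Oa in both knockout lines, and H2-DMb1 and Ciita in Stat5b-/-.

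Ciita, which encodes the coactivator CIITA, was close to the limit of detection. Whether the other 9 genes depended on it in these lines was not tested. Its counts were 5, 9 and 12 reads in wt, 10, 10 and 16 in Stat5a-/- and 15, 14 and 22 in Stat5b-/-, which are 0.317, 0.455 and 0.693, then 0.699, 0.814 and 1.44, then 1.03, 0.957 and 1.68 normalized CPM. All knockout libraries were above all wt libraries, by a narrow margin for the lowest Stat5a-/- library, and the 2 knockout lines overlapped. The fold change over wt was 2.44 in Stat5b-/- (log2 1.29 ± 0.40 SE, adjusted p = 0.0181) and 1.95 in Stat5a-/- (log2 0.96 ± 0.42, adjusted p = 0.0973), and Stat5b-/- differed from Stat5a-/- by 0.33 (95% interval −0.49 to 1.15). The Stat5b-/- call was lost without wt replicate 1 (1.08, adjusted p = 0.0644), wt replicate 2 (1.22, 0.0577) or Stat5b-/- replicate 3 (1.01, 0.0794). Ciita lies at chr16:10488178-10527564, on a chromosome whose other tested genes had medians of −0.0593 in Stat5b-/- and −0.0466 in Stat5a-/- against wt.

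H2-Ab1 encodes the beta chain of I-A, the class II molecule of C57BL/6 mice, and lies at chr17:34263209-34269418. It stood at 4.57, 5.10 and 6.12 normalized CPM in wt, at 21.8, 25.7 and 31.8 in Stat5a-/- and at 35.9, 34.8 and 34.4 in Stat5b-/-. The 3 lines did not overlap. It rose by a log2 fold change of 2.73 ± 0.16 SE in Stat5b-/- (6.64-fold, adjusted p = 2.05e-08) and of 2.32 ± 0.16 in Stat5a-/- (5-fold, adjusted p = 1.2e-07), and both calls held under each of 20 alternative settings, with values from 2.63 to 2.85 and from 1.78 to 2.44. The difference between the knockout lines was far smaller, at 0.41 ± 0.14 (adjusted p = 0.0427), and fell short of the threshold under 11 of the 20 settings, among them DESeq2 (0.394, adjusted p = 0.0525). It also fell short without wt replicate 2 or 3, Stat5a-/- replicate 1 or 2, or any Stat5b-/- replicate, with its smallest value without Stat5a-/- replicate 1 (0.285, adjusted p = 0.187).

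H2-Aa, the alpha chain that pairs with H2-Ab1, had a different profile. It lies at chr17:34282744-34287827 on the minus strand and stood at 27.3, 37.5 and 32 normalized CPM in wt, 47.8, 49.6 and 40.8 in Stat5a-/- and 80.6, 55.6 and 80.9 in Stat5b-/-. The lines did not overlap, but the second Stat5b-/- library lay nearer to the Stat5a-/- libraries than to its own group. The fold change over wt was 2.24 in Stat5b-/- (log2 1.16 ± 0.16 SE, adjusted p = 6.11e-05) and 1.43 in Stat5a-/- (log2 0.51 ± 0.16, adjusted p = 0.024), and Stat5b-/- exceeded Stat5a-/- by 0.65 ± 0.16 (adjusted p = 0.00714). The Stat5a-/- call was lost without wt replicate 1 (0.406, adjusted p = 0.0904), wt replicate 3 (0.504, 0.0741), Stat5a-/- replicate 1 (0.464, 0.0812) or Stat5a-/- replicate 2 (0.443, 0.0913).

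H2-Eb1 encodes the beta chain of I-E, whose alpha chain gene is defective in C57BL/6 mice and is annotated as the pseudogene H2-Ea-ps. That pseudogene had 1 read in all 9 libraries together. H2-Eb1, at chr17:34305877-34316199, stood at 6.98, 10.4 and 9.01 normalized CPM in wt, 15, 15.7 and 16.4 in Stat5a-/- and 19.5, 15.2 and 19 in Stat5b-/-, so that wt was lowest and the knockout lines overlapped. It rose 2.02-fold in Stat5b-/- (log2 1.01 ± 0.16 SE, adjusted p = 1.82e-04) and 1.77-fold in Stat5a-/- (log2 0.83 ± 0.16, adjusted p = 0.00123), with 0.19 between the knockout lines (95% interval −0.15 to 0.53, adjusted p = 0.379).

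The invariant chain Cd74 moved mainly in the Stat5a-/- line. It stood at 95.1, 91.1 and 87.6 normalized CPM in wt, at 173, 198.5 and 201 in Stat5a-/- and at 118.5, 98.3 and 113.5 in Stat5b-/-, with no overlap between lines. It rose 2.09-fold in Stat5a-/- (log2 1.06 ± 0.10 SE, adjusted p = 3.16e-06) and 1.21-fold in Stat5b-/- (log2 0.27 ± 0.10, adjusted p = 0.0472), and was lower in Stat5b-/- than in Stat5a-/- by −0.79 ± 0.10 (adjusted p = 7e-05). The small Stat5b-/- change missed the threshold under 17 of the 20 settings, including DESeq2 (0.236, adjusted p = 0.0921) and without any 1 library except Stat5b-/- replicate 2 (0.188 to 0.298 over the libraries that ended the call). Cd74 lies at chr18:60803848-60812646, and the other 323 tested genes of chromosome 18 had a median of 0.432 in Stat5a-/- and −0.0435 in Stat5b-/- against wt. The part of that chromosome-wide shift in the Stat5a-/- value was not tested.

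**Figure D2:**
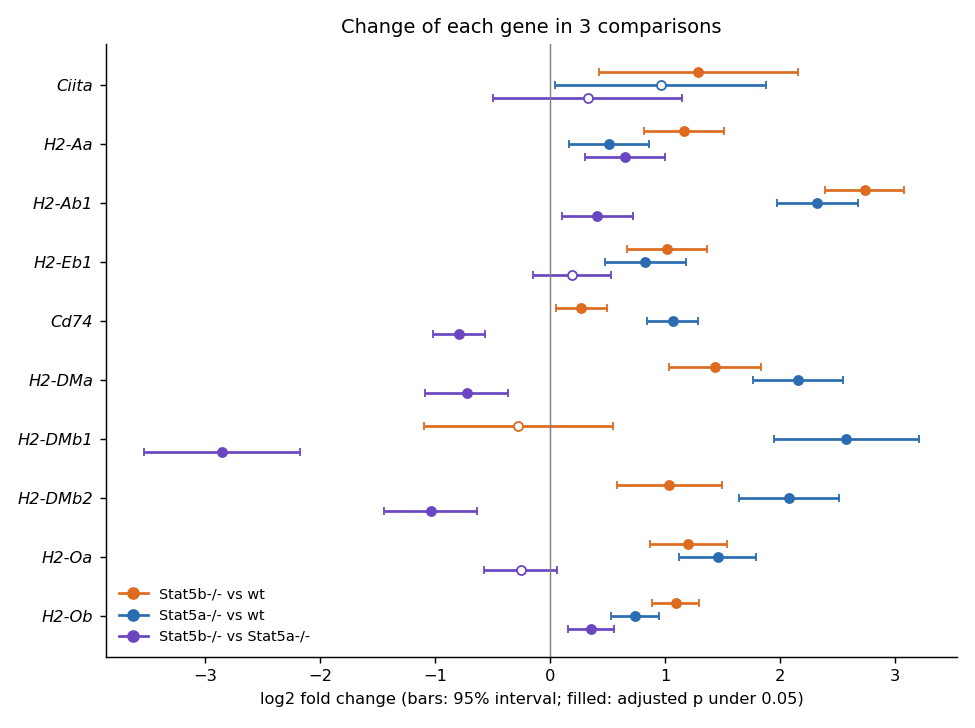
Log2 fold changes (x axis) of the 10 genes with 95% intervals for Stat5b-/- against wt (orange), Stat5a-/- against wt (blue) and Stat5b-/- against Stat5a-/- (purple), with filled points where the adjusted p was under 0.05. The purple points for H2-DMa, H2-DMb1, H2-DMb2 and Cd74 lie below 0 and those for H2-Aa, H2-Ab1 and H2-Ob above it.

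The genes of the peptide exchange factor DM were higher in Stat5a-/- than in Stat5b-/-. The alpha chain gene H2-DMa (chr17:34135182-34139101) stood at 3.24, 3.84 and 3.23 normalized CPM in wt, 14.4, 16.6 and 15.2 in Stat5a-/- and 11.5, 7.38 and 8.99 in Stat5b-/-, with no overlap. It rose 4.45-fold in Stat5a-/- (log2 2.15 ± 0.18 SE, adjusted p = 7.43e-07) and 2.69-fold in Stat5b-/- (log2 1.43 ± 0.18, adjusted p = 3.43e-05), a difference of −0.72 ± 0.17 (adjusted p = 0.005).

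The mouse has a pair of DM beta chain genes, H2-DMb1 and H2-DMb2, which lie side by side. H2-DMb1 (chr17:34153072-34160230) had 18, 16 and 16 reads in wt, 81, 59 and 74 in Stat5a-/- and 13, 5 and 15 in Stat5b-/-, or 1.14, 0.808 and 0.924, then 5.66, 4.8 and 6.67, then 0.891, 0.342 and 1.14 normalized CPM. The Stat5b-/- and wt libraries overlapped, and the Stat5a-/- libraries lay far above both. H2-DMb1 rose 5.96-fold in Stat5a-/- (log2 2.58 ± 0.29 SE, adjusted p = 1.18e-05), and its change in Stat5b-/- was −0.28 (95% interval −1.10 to 0.55, adjusted p = 0.58). The difference between the knockout lines, −2.85 ± 0.31 (adjusted p = 1.43e-05), was the largest among the 10 genes and held under all 20 settings, between −3.19 and −2.42.

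H2-DMb2 (chr17:34143307-34151553) did rise in both lines, from 2.35, 1.92 and 1.91 normalized CPM in wt to 8.39, 9.11 and 8.48 in Stat5a-/- and 5.01, 3.14 and 4.49 in Stat5b-/-. The lines did not overlap. The fold change was 4.21 in Stat5a-/- (log2 2.08 ± 0.20 SE, adjusted p = 2.74e-06) and 2.05 in Stat5b-/- (log2 1.04 ± 0.21, adjusted p = 0.00134), with −1.04 ± 0.19 between the knockout lines (adjusted p = 9.26e-04). Of the 50-base windows of H2-DMb1 transcripts, 22.7% are identical in H2-DMb2, where reads align to both genes and were not counted, so these values rest on the distinct parts.

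The genes of DO, which restrains DM, rose in both lines. H2-Oa (chr17:34092340-34095234) stood at 4.76, 4.09 and 3.99 normalized CPM in wt, 10.9, 12.9 and 11.4 in Stat5a-/- and 10.3, 10.5 and 8.61 in Stat5b-/-. The knockout lines stood close together, apart from wt. H2-Oa rose 2.74-fold in Stat5a-/- (log2 1.46 ± 0.15 SE, adjusted p = 6.58e-06) and 2.3-fold in Stat5b-/- (log2 1.20 ± 0.15, adjusted p = 3.4e-05), with −0.26 between them (95% interval −0.57 to 0.06). Of its exon bases, 15.2% lie within the antisense gene BC051537, and counting did not use strand.

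H2-Ob (chr17:34238903-34245907), the DO beta chain, had the smallest standard errors of the 10 genes. It stood at 38.0, 43.1 and 40.5 normalized CPM in wt, 66.3, 71.7 and 65.0 in Stat5a-/- and 84.3, 87.1 and 87.9 in Stat5b-/-, a clear step at each line. It rose 2.13-fold in Stat5b-/- (log2 1.09 ± 0.09 SE, adjusted p = 9.04e-07) and 1.67-fold in Stat5a-/- (log2 0.74 ± 0.09, adjusted p = 3.96e-05), and the step between the knockout lines was 0.35 ± 0.09 (adjusted p = 0.0112).

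For genes whose products pair with each other, the ratios stood apart between some lines and overlapped between others. Per exon length, the ratio of H2-Ab1 to H2-Aa was 0.192, 0.156 and 0.219 in wt, 0.523, 0.593 and 0.894 in Stat5a-/- and 0.510, 0.717 and 0.487 in Stat5b-/-, so that the beta chain lay furthest below the alpha chain in wt. The ratio of H2-DMa to both beta chain genes together was 0.903, 1.37 and 1.11 in wt, 0.998, 1.16 and 0.973 in Stat5a-/- and 1.90, 2.06 and 1.55 in Stat5b-/-, where it was highest. H2-Oa to H2-Ob stood apart in Stat5a-/- instead, at 0.395, 0.433 and 0.419, against 0.228 to 0.300 in wt and 0.235 to 0.293 in Stat5b-/-. With 3 libraries a line the exact permutation test (two-sided) cannot go below p = 0.1, and 9 of 12 ratio tests, H2-Aa to Cd74 among them, gave p = 0.1 (adjusted p = 0.133). The other values were p = 0.5 for H2-Ab1 to H2-Aa between the knockout lines, p = 0.7 for the DM ratio in Stat5a-/- against wt and p = 0.8 for the DO ratio in Stat5b-/- against wt, all exact. The first of these turned from −0.213 to 0.0149 on the log2 scale without Stat5a-/- replicate 3, and the second from −0.0956 to 0.0548 without wt replicate 2.

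The 8 class II genes on chromosome 17 sit in the MHC, and in the Stat5a-/- line most of that chromosome was higher. Its 669 other tested genes had a median log2 fold change of 0.53 in Stat5a-/- against wt, with 55.6% of them called higher, and of 0.131 with 27.2% called higher in Stat5b-/-. Within 1000 kb of the H2-Ab1 start the 88 other tested genes had medians of 0.595 and 0.126. The 8 other tested genes between the first and the last class II gene had medians of 0.768 and 0.88. When libraries were scaled on chromosome 17 genes alone, which lowers every Stat5a-/- value by 0.298 to 0.37 and raises every wt value by 0.188 to 0.236 on the log2 scale, 3 Stat5a-/- calls ended. These were H2-Aa (−0.02, adjusted p = 0.915), H2-Eb1 (0.289, 0.149) and H2-Ob (0.201, 0.1). H2-Ab1 (1.78), H2-DMa (1.62), H2-DMb1 (2.04), H2-DMb2 (1.54) and H2-Oa (0.922) kept theirs. Under the same scaling the difference between the knockout lines in H2-DMa was −0.291 (adjusted p = 0.153), and that in H2-Eb1 reached 0.626 (adjusted p = 0.00594).

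**Figure D3:**
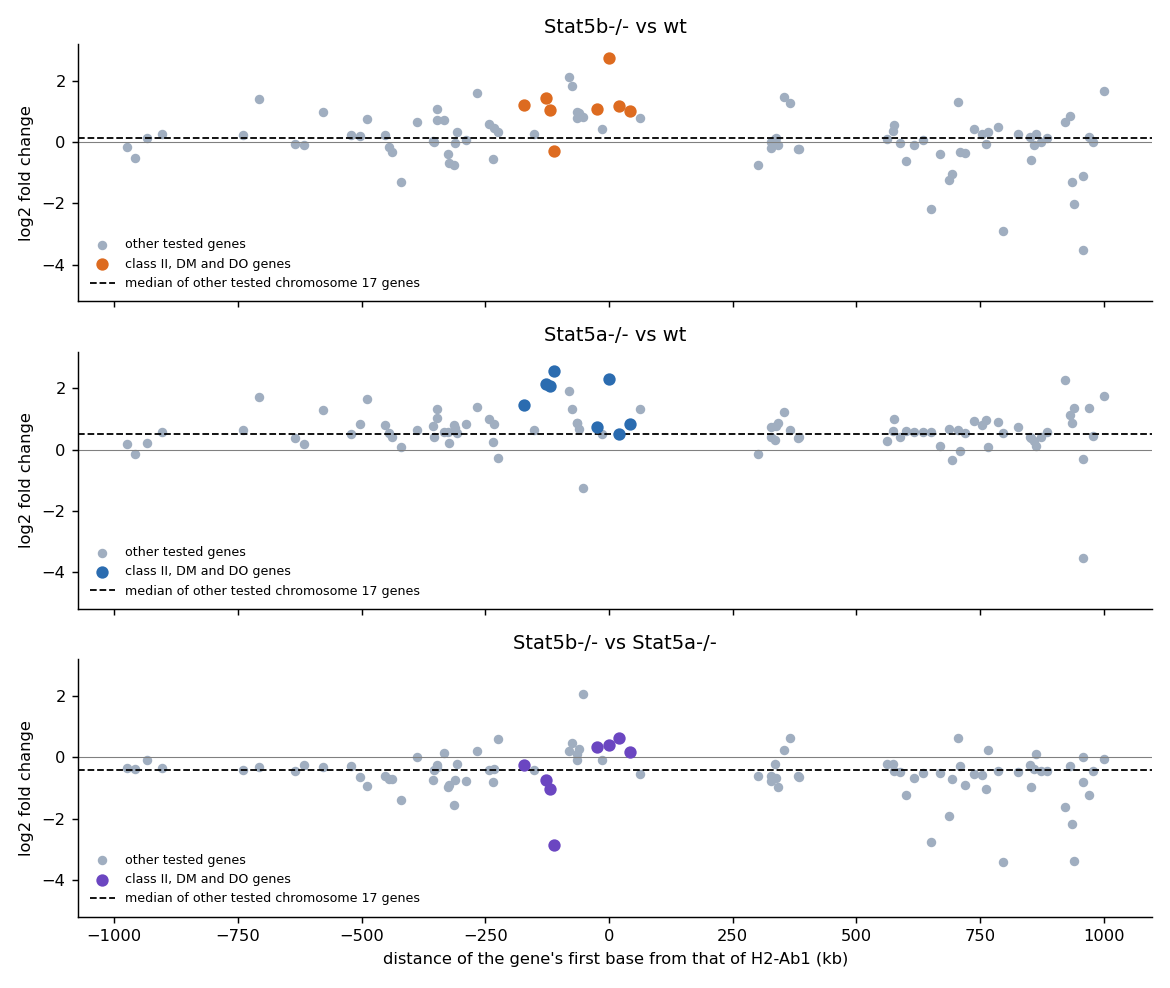
Log2 fold change (y axis) of each tested gene within 1000 kb of H2-Ab1 against the distance of its first base from that of H2-Ab1 (x axis, kb), in 3 comparisons, with class II, DM and DO genes coloured and the dashed line at the median of the other tested chromosome 17 genes. The dashed line lies at 0.53 in Stat5a-/- against wt and at 0.131 in Stat5b-/- against wt.

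The neighbours inside the class II region that belong to the class I pathway rose as well. Psmb9, an immunoproteasome subunit, stood at 39.2, 33.2 and 36.4 normalized CPM in wt, 127, 132 and 147 in Stat5a-/- and 161, 164 and 149 in Stat5b-/-, which is 3.74-fold and 4.36-fold higher (adjusted p = 1.3e-08 and 4.37e-09). Tap1, a subunit of the peptide transporter, rose 2.53-fold in Stat5a-/- (adjusted p = 6.77e-08) and 3.55-fold in Stat5b-/- (adjusted p = 3.59e-09). Psmb8 and Tap2 rose in both lines by 1.60-fold to 1.92-fold. H2-Eb2, a further beta chain gene, rose 2.53-fold in Stat5a-/- and 1.74-fold in Stat5b-/- (adjusted p = 0.0225), a call that was lost with the T-cell covariate (log2 0.274, adjusted p = 0.67) and when scaled on chromosome 17 genes (0.702, 0.0509). Brd2, a chromatin reader of general function, rose 1.58-fold in Stat5a-/- (adjusted p = 5.62e-04) and had 0.26 ± 0.12 in Stat5b-/- (log2, adjusted p = 0.0858). Of the 8 neighbours listed, 6 were tested, of which 6 rose in Stat5a-/- and 5 in Stat5b-/- (median log2 fold changes of 1.1 and 0.871), where 19.8% and 24.2% of all genes tested rose, while H2-Ea-ps and Btnl2 had too few reads. Scaled on chromosome 17 genes, 4 were called higher in each line, where 1103 of all 13852 genes tested were higher in Stat5a-/-. Among the 4, Psmb9 stood at 1.37 in Stat5a-/- and 2.03 in Stat5b-/- and Tap1 at 0.805 and 1.73 (log2). Tap2 (0.137, adjusted p = 0.352) and Brd2 (0.119, 0.319) lost their Stat5a-/- calls.

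Some transcripts of T cells moved with H2-Aa from library to library. The 5 tested genes with the highest Pearson correlation to H2-Aa over the 9 libraries were Cd3e, Cd247, Nkg7, Trac and Il2rb (r from 0.994 to 0.998), all genes of T cells or natural killer cells. Cd3e, a chain of the T-cell receptor complex, stood at 127, 175 and 159 normalized CPM in wt, 221, 237 and 196 in Stat5a-/- and 378, 265 and 366 in Stat5b-/-. In each line the same library was lowest for both genes (wt replicate 1, Stat5a-/- replicate 3 and Stat5b-/- replicate 2). The number of H2-Aa reads per Cd3e read lay between 0.202 and 0.221 in all 9 libraries, a description of the gene picked as the closest of all those tested. Against the other T-cell markers that ratio was less even. It ranged 1.11-fold to 1.19-fold for Cd247, Trac, Cd8b1 and Trbc2, and 1.25-fold to 1.61-fold for Cd8a, Cd3g, Cd5, Trdc, Cd3d and Cd4. For Trbc1 (2.01-fold), Cd28 (2.09-fold), Lck (3.36-fold), Zap70 (3.63-fold) and Cd2 (5.68-fold) it was not kept. For H2-Eb1 the number of reads per Cd3e read ranged 1.63-fold (0.0516 to 0.0839), for Cd74 3.31-fold and for H2-Ab1 5.58-fold (0.0292 to 0.163).

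**Figure D4:**
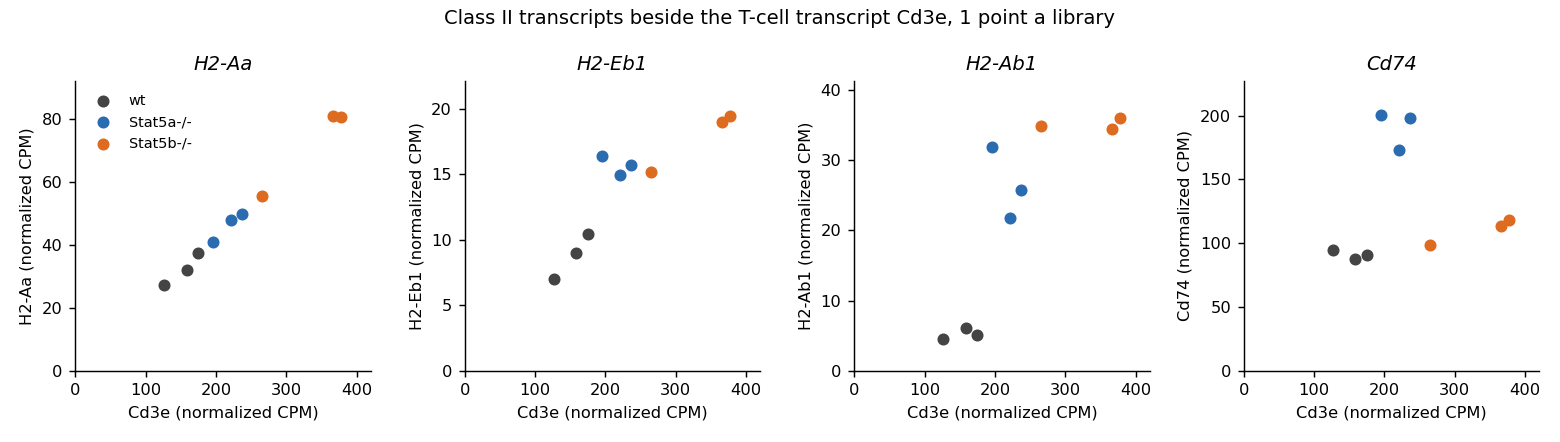
Normalized CPM of H2-Aa, H2-Eb1, H2-Ab1 and Cd74 (y axes, from 0) against that of the T-cell transcript Cd3e (x axis) in the 9 libraries, coloured by line. H2-Aa lies on 1 line through all libraries (0.202 to 0.221 H2-Aa reads per Cd3e read), whereas H2-Ab1 and Cd74 separate by line.

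A covariate for T-cell content, the fraction of each library in transcripts of beta variable segments, was then added. With it, H2-Aa in Stat5b-/- against wt was 0.521 (adjusted p = 0.0531) and between the knockout lines 0.0958 (adjusted p = 0.757). H2-Eb1 (0.503, adjusted p = 0.0951), H2-DMb2 (0.836, 0.121) and Ciita (0.96, 0.363) also lost their call in Stat5b-/- against wt, as did Cd74. H2-Ab1 (2.77, adjusted p = 2.23e-05), H2-Oa (1.46, 0.00104), H2-Ob (1.00, 5.73e-04) and H2-DMa (1.01, 0.0243) kept theirs, and in Stat5a-/- against wt all 9 calls were kept. The T-cell share itself differed between the lines, so that the covariate removes a part of the difference between them. The labels name no T cells. Whether the T-cell transcripts, and the H2-Aa reads that moved with part of them, came from the cells of the lines or from other cells or libraries was not tested, and the 2.24-fold rise of H2-Aa holds for the libraries as sequenced.

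Other cells that present antigen were looked for through their markers. The 9 dendritic cell markers, 6 of them tested, summed to 35.9 to 44.3 normalized CPM in wt, 73.9 to 77.4 in Stat5a-/- and 67.0 to 98.3 in Stat5b-/-. The 9 macrophage markers summed to 39.6 to 41.9 in wt, 16.6 to 18.1 in Stat5a-/- and 27.0 to 31.2 in Stat5b-/-, and Cd14 had no read in Stat5b-/-. The 7 mature B cell markers summed to 142 to 158, 224 to 242 and 117 to 128.5, and the 6 natural killer cell markers to 19.4 to 24.1, 16.3 to 19.4 and 19.1 to 30.2. Ccr7, a homing receptor also made by other lymphocytes, was 33.1 of the mean dendritic sum of 40.9 in wt and 69.7 of 75.8 in Stat5a-/-, while Flt3 fell in both knockout lines. Of the 6 dendritic markers tested, Itgax, Clec9a and Siglech passed the filter only with the knockout libraries, and of the other 3, 2 were higher and 1 lower in Stat5b-/- and 1 was higher and 1 lower in Stat5a-/-. Of 5 macrophage markers tested, Csf1r passed only with the knockout libraries and Fcgr1 only through wt. Of the remaining 3, Mrc1 was lower in both lines, Cd68 was lower in Stat5a-/-, and Lyz2 rose in Stat5b-/- and had 0.13 in Stat5a-/- (log2, not called). Of the 7 mature B cell markers, 3 were higher and 1 lower in Stat5a-/- and 5 higher and 1 lower in Stat5b-/-, where the sum was lowest, and Bank1 was the lower one in both. Among natural killer cell markers, Klrb1c fell 2.3-fold in Stat5a-/- and 6.28-fold in Stat5b-/-, while Eomes and Prf1 rose 2.15-fold and 2.1-fold in Stat5b-/-. Of all genes tested, 19.8% were higher and 16.3% lower in Stat5a-/- and 24.2% and 22% in Stat5b-/-. Their part in the results was not tested.

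The factors that bind the X and Y boxes and the acetyltransferases recruited there had smaller fold changes than most of the class II genes. Of the 10 listed, 3 rose in Stat5b-/- and 1 in Stat5a-/-, and none fell, with medians of 0.306 and 0.0465. Of all genes tested, 24.2% and 19.8% were higher, so that nothing particular to these genes is read from the counts. Under the T-cell covariate 1 of them, Rfxank, was called higher in Stat5b-/-, as were 1792 of all 13852 genes tested. With libraries scaled on chromosome 17 genes 8 were called lower in Stat5a-/-, as were 7901 of all genes tested. Rfx5, the RFX subunit that contacts the X box, stood at 26.2, 26.9 and 30.03 normalized CPM in wt, 22.3, 22.7 and 24.2 in Stat5a-/- and 39.6, 39.2 and 35.7 in Stat5b-/-, which was highest. It rose 1.38-fold in Stat5b-/- (adjusted p = 0.00281), had a log2 fold change of −0.26 ± 0.11 in Stat5a-/- (adjusted p = 0.0708), and differed between the knockout lines by 0.73 (adjusted p = 1.85e-04). With the T-cell covariate the Stat5b-/- value of Rfx5 was 0.47 (adjusted p = 0.0715) and that of Nfya 0.344 (adjusted p = 0.132). Its partner Rfxank rose 1.47-fold in Stat5b-/- (adjusted p = 0.00677). Nfya, a subunit of the Y box factor NF-Y, rose 1.25-fold in Stat5b-/- (adjusted p = 0.0117) and 1.46-fold in Stat5a-/- (adjusted p = 4.54e-04). Scaled on chromosome 17 genes, Nfya lost its call in Stat5b-/- (log2 0.228, adjusted p = 0.0737) and in Stat5a-/- (0.00871, 0.944). Rfxap, Nfyb, Nfyc, Creb1, Crebbp, Ep300 and Kat2b, of which the last 3 are acetyltransferases, were not called in either line, with log2 values between −0.01 and 0.32.

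Along the route from interferon-gamma to Ciita, 5 of 8 genes reported here rose and 1 fell in Stat5b-/-, and 3 rose and 2 fell in Stat5a-/-, with median log2 fold changes of 0.597 and 0.2. Of all genes tested, 24.2% rose and 22% fell in Stat5b-/- and 19.8% and 16.3% in Stat5a-/-. Irf1, which acts on the inducible Ciita promoter, stood at 22, 21.7 and 21.2 normalized CPM in wt, 44.0, 42.9 and 41.7 in Stat5a-/- and 63.3, 69.0 and 66.1 in Stat5b-/-. Its steps were as clear as those of H2-Ob, 3.06-fold in Stat5b-/- (adjusted p = 2.2e-08) and 1.98-fold in Stat5a-/- (adjusted p = 2.87e-06). With the T-cell covariate the Stat5b-/- value of Irf1 was 1.67 (adjusted p = 1.25e-05), whereas Jak2 (0.237, adjusted p = 0.439) and Ifngr2 (−0.168, 0.458) lost their calls there. Scaled on chromosome 17 genes, 4 genes of this list were called lower in Stat5a-/-, as were 7901 of all 13852 genes tested. Irf2 (−0.542, adjusted p = 2.99e-04) and Usf1 (−0.476, 0.00197) were added, and Ifngr1 lost its call (−0.0584, 0.59).
Socs1, a feedback inhibitor of JAK kinases and a known STAT target, went the other way between the knockout lines. It stood at 19.4, 12.6 and 15 normalized CPM in wt, 44.3, 51.6 and 70.8 in Stat5a-/- and 31.8, 25.7 and 21.9 in Stat5b-/-, which is 3.55-fold higher in Stat5a-/- (adjusted p = 1.04e-05), 1.7-fold higher in Stat5b-/- (adjusted p = 0.00795) and lower in Stat5b-/- than in Stat5a-/- by −1.07 (adjusted p = 0.00114). The receptor chains parted, Ifngr1 rising 1.58-fold in Stat5b-/- and 1.39-fold in Stat5a-/- while Ifngr2 fell 1.19-fold and 1.37-fold. Jak1 rose 1.45-fold in Stat5b-/- and fell 1.19-fold in Stat5a-/-, and Jak2 rose 1.58-fold in Stat5b-/-. Irf2 and Usf1 were called in neither line in the main fit. Scaled on chromosome 17 genes, Irf2 was also lower in Stat5b-/- (log2 −0.25, adjusted p = 0.0426). The count of falling genes in Stat5b-/- went from 1 to 0 without wt replicate 1 or 3 or Stat5b-/- replicate 2 or 3, and that in Stat5a-/- from 2 to 1 without any wt replicate, Stat5a-/- replicate 2 or 3, or Stat5b-/- replicate 2.

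Of 7 lineage factors tied to Ciita promoters in B cells and other presenting cells, Prdm1 passed the filter only with the knockout libraries and is not counted. Of the other 6, 1 rose and 1 fell in Stat5b-/- and 2 rose and 1 fell in Stat5a-/-, with medians of 0.192 and 0.121. Of all genes tested, 24.2% and 19.8% rose and 22% and 16.3% fell. With the T-cell covariate Irf4 kept its call in Stat5b-/- (1.15, adjusted p = 3.02e-04), and Prdm1 (1.3, 0.169) and Pax5 (−0.142, 0.712) lost theirs. Irf4 rose in both, from 104, 112 and 126 normalized CPM in wt to 202, 206 and 197 in Stat5a-/- (1.76-fold, adjusted p = 1.73e-05) and 258, 270 and 274 in Stat5b-/- (2.33-fold, adjusted p = 3.52e-07). Prdm1, a repressor of Ciita in plasma cells, had 3.14-fold its wt level in Stat5b-/- (adjusted p = 0.00236), from 0.505 to 1.16 normalized CPM in wt, where 1 of 3 libraries reached the filter. Irf8 fell 1.59-fold in Stat5a-/- (adjusted p = 0.00145). Pax5, the B cell identity factor, fell 1.31-fold in Stat5b-/- (adjusted p = 0.0445), and no gene of this list was called lower there without any 1 of the wt replicates, Stat5a-/- replicate 2 or Stat5b-/- replicate 3. Spi1 rose 1.43-fold in Stat5a-/- (adjusted p = 0.0423), and without wt replicate 2 or 3, any Stat5a-/- replicate or Stat5b-/- replicate 2 only 1 gene of the list was called higher there. Ebf1 (0.25 and −0.01) and Tcf3 (0.42 and 0.25, log2 in Stat5b-/- and Stat5a-/-) were not called. Scaled on chromosome 17 genes, 3 of the list were lower in Stat5a-/-, as were 7901 of all 13852 genes tested. Ebf1 (−0.544, adjusted p = 0.00149) and Pax5 (−0.543, 0.00301) were added to Irf8, and Spi1 lost its call (−0.0208, 0.923).

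Among the genes of antigen processing and class II turnover, Ifi30 rose and March8 fell in both knockout lines. Ifi30, the lysosomal thiol reductase that opens disulfide bonds of antigens, stood at 9.58, 11.2 and 11.6 normalized CPM in wt, 32.5, 35.6 and 31.1 in Stat5a-/- and 191, 180 and 178 in Stat5b-/-. It rose 17-fold in Stat5b-/- (log2 4.08 ± 0.11 SE, adjusted p = 3.68e-11) and 3.07-fold in Stat5a-/- (adjusted p = 1e-07), a difference of 2.47 ± 0.11 between the knockout lines (adjusted p = 2e-09). March8, a ubiquitin ligase that removes class II and other proteins from the surface, went the other way. It stood at 13, 12.2 and 12.2 normalized CPM in wt, 4.62, 3.09 and 4.51 in Stat5a-/- and 0.891, 2.05 and 1.37 in Stat5b-/-, which is 3.06-fold lower (adjusted p = 4.76e-05) and 8.63-fold lower (adjusted p = 3.14e-07).
Lgmn, an asparagine endopeptidase of endosomes, fell 3.01-fold in Stat5b-/- (adjusted p = 3.05e-08) and 2.43-fold in Stat5a-/- (adjusted p = 2.59e-07). Ctss, the cathepsin that trims the invariant chain in B cells and dendritic cells, fell 1.75-fold in Stat5a-/- (adjusted p = 4.65e-04) and had −0.29 ± 0.14 in Stat5b-/- (log2, adjusted p = 0.0957). Sppl2a, which cleaves the remaining CD74 stub in the membrane, fell 1.54-fold (adjusted p = 0.00466) and March1 2.15-fold (adjusted p = 0.0112) in Stat5a-/-, with −0.11 and −0.20 in Stat5b-/- (log2, not called). Ctsb rose 1.23-fold in Stat5b-/- and 1.29-fold in Stat5a-/-. Of the 9 genes, Ctsl passed the filter only with knockout libraries, with 1.58 normalized CPM at most, and is not counted. Of the other 8, 2 rose and 2 fell in Stat5b-/-, and 2 rose and 5 fell in Stat5a-/-, with medians of −0.153 and −0.716. Of all genes tested, 24.2% rose and 22% fell in Stat5b-/-, and 19.8% and 16.3% in Stat5a-/-. Ctsd was called in neither line in the main fit. Scaled on chromosome 17 genes, Ctsd was lower in Stat5a-/- (−0.477, adjusted p = 0.00158). Ctsb lost its call there and in Stat5b-/- (0.203, 0.0764) under that scaling. Without wt replicate 2 the count of risers in Stat5b-/-, Ctsl included, was 1 in place of 3. The Stat5b-/- value of Ctsl turned from 2.14 to −0.837 with the T-cell covariate (adjusted p = 0.61), and Ctss was called lower there (−0.71, 0.0166).

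**Figure D5:**
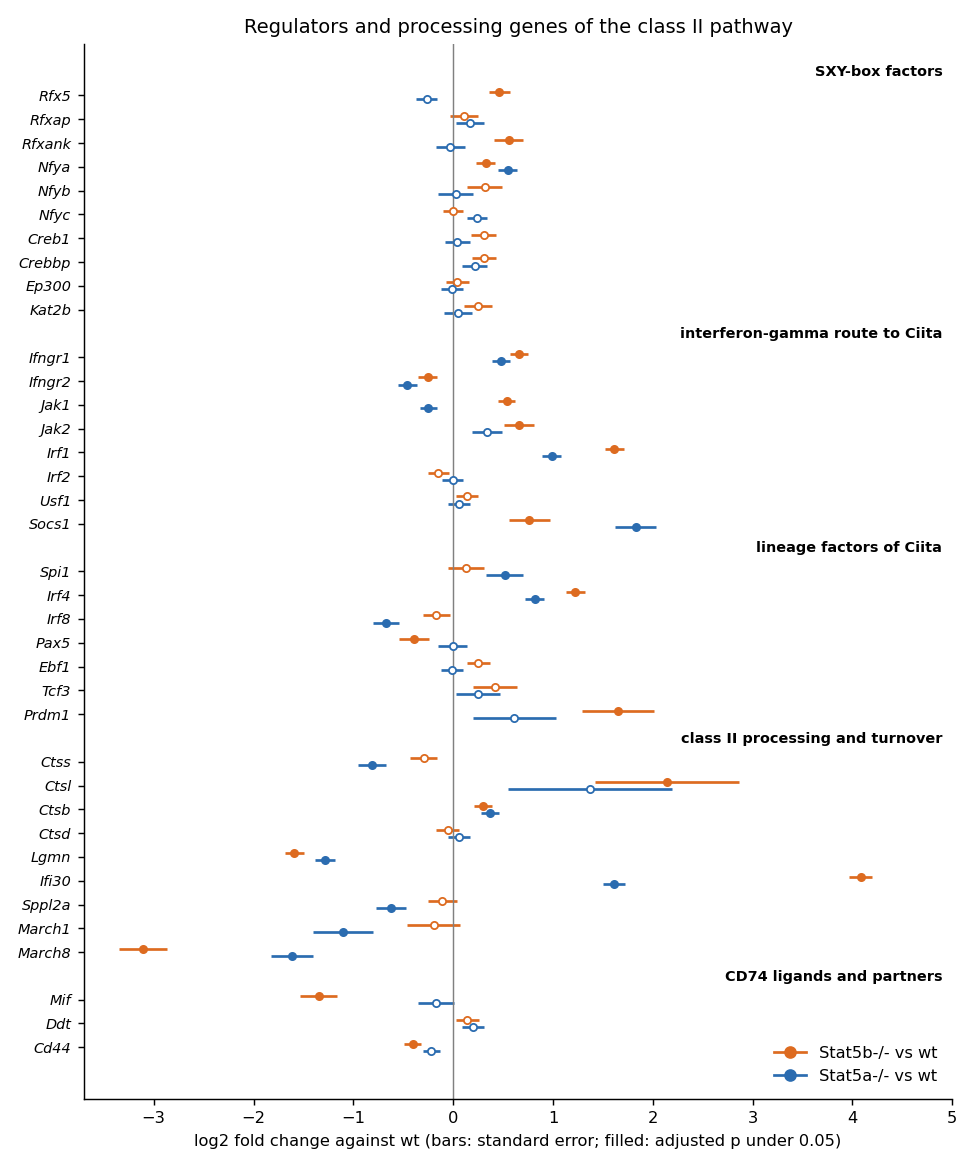
Log2 fold changes against wt (x axis, bars give the standard error) of tested regulators and processing genes of the class II pathway in Stat5b-/- (orange) and Stat5a-/- (blue), with filled points where the adjusted p was under 0.05. Ifi30 lies furthest to the right (4.08 in Stat5b-/-) and March8 furthest to the left (−3.11).

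CD74 also serves at the surface as the receptor for the cytokine MIF, with CD44 as its partner. Mif stood at 330, 199 and 229 normalized CPM in wt, 183, 248.9 and 240.5 in Stat5a-/- and 109, 106 and 82.7 in Stat5b-/-, where it was lowest. It fell 2.55-fold in Stat5b-/- (adjusted p = 5.93e-05), and its log2 value in Stat5a-/- was −0.17 ± 0.18 (adjusted p = 0.497). Cd44 fell 1.32-fold in Stat5b-/- (adjusted p = 0.00142) and had −0.22 ± 0.08 in Stat5a-/- (log2, adjusted p = 0.0561). Ddt, a relative of MIF, had 0.14 and 0.20 (log2, not called), and the medians of the 3 genes were −0.406 in Stat5b-/- and −0.173 in Stat5a-/-. Cd74 was highest in Stat5a-/- and Mif lowest in Stat5b-/-. With the T-cell covariate the Mif value in Stat5b-/- was −0.663 (adjusted p = 0.0683). Scaled on chromosome 17 genes all 3 genes were called lower in Stat5a-/- (−0.754 to −0.337), as were 7901 of all 13852 genes tested.

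Over all genes tested, those with the most similar pattern over the 9 libraries, by Pearson correlation of log2 normalized CPM and given as a description, differed from gene to gene. For H2-Ab1 they were Dhx57, St3gal1, Ifnlr1, H2-K1 and Gm42047 (r from 0.993 to 0.995), of which H2-K1 is a class I heavy chain of the MHC. For Cd74 they were Decr2, Gm15545, Ccnj, Cd2, which is also among the T-cell markers, and 1700001O22Rik (0.984 to 0.989), and for Ciita B430306N03Rik, Synj1, Usp24, 1700052K11Rik and Espn (0.918 to 0.951). No gene was in the first 5 of more than 1 of Ciita, H2-Aa, H2-Ab1 and Cd74.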

How the data were processed

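The submitters' processing notes name Trimmomatic, STAR and GRCm38 (mm10), and the deposited files hold whole-number read counts per gene that the authors made with featureCounts 1.5.1 on GENCODE exons. Per the file headers no option for strand, multi-mapping or overlapping genes was set, so reads in shared sequence or in overlapping genes were left out. Libraries (SENSE kit, 50-base single-end reads, 3 technical replicates of 1 line per genotype) had 11948136 to 19016396 counts, and replicates differed by more than sampling noise (chi-square per degree of freedom 5.05 to 31.4). Symbols were matched for 50376 of 50686 genes.

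The counts of all 9 libraries were fitted in edgeR 4.0.16 (R 4.3.3) with TMM scaling, filterByExpr and the quasi-likelihood test, with Benjamini-Hochberg adjustment over 13852 genes and calls at adjusted p under 0.05. Fold changes are log2 with standard errors or 95% intervals. The fit was tested on simulated counts, drawn with the same spread for every gene and no chromosome-wide shift. That test does not bear on the spread or the chromosome-wide shifts of these libraries. The 10 genes, the gene lists (105 genes; 1 further gene is not reported here) and all tests were chosen with earlier results of these data known. The text names the 10 genes, the list genes and, for H2-Ab1, H2-Aa, Cd74 and Ciita, the 5 genes with the highest Pearson correlation (prior count 2). Ratios of paired chains were compared by exact permutation tests. Alternatives were DESeq2 1.42.0, RLE scaling, scaling on chromosome 17 genes, other filters, a replicate block, a T-cell covariate, a test against a log2 change of 1, fits of 2 lines, each library left out and, added after the data were seen, an offset for GC content, and for the gene lists the chromosome 17 scaling and the covariate. Sequences came from RefSeq windows of 250 bases before to 50 after a start site.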

Additional observations from a re-analysis of the deposited data

Results flagged for a closer look

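The response of 7 genes differed between the Stat5b-/- and Stat5a-/- lines when the lines were compared directly. Relative to Stat5a-/-, the log2 difference was 0.651 for H2-Aa, 0.41 for H2-Ab1 and 0.354 for H2-Ob, all higher in Stat5b-/-. It was −0.792 for Cd74, −0.725 for H2-DMa, −2.85 for H2-DMb1 and −1.04 for H2-DMb2, all lower in Stat5b-/-. Each difference was higher or lower in 3 of 3 libraries of a line. Those of Cd74, H2-DMb1 and H2-DMb2 kept their call when libraries were scaled on chromosome 17 genes (−0.354, −2.42 and −0.604) and with the T-cell covariate (−0.823, −2.97 and −1.21). With the covariate, H2-Aa (0.0958, adjusted p = 0.757), H2-Ab1 (0.441, 0.276) and H2-Ob (0.277, 0.218) lost theirs, and H2-DMa lost its call under the chromosome 17 scaling (−0.291, 0.153). That scaling does not address Cd74, which lies on chromosome 18. The other tested genes there had a median of −0.476 in this comparison.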

How the results depend on the processing

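Of the 20 alternatives, 2 changed the counts of the 9 genes other than Ciita by over 1.5 times. The main fit had 8 higher in Stat5b-/- and 9 in Stat5a-/-. DESeq2 gave 7 and 9, and scaling on chromosome 17 genes gave 7 and 6. With the T-cell covariate, 4 genes were higher in Stat5b-/- than in wt and 0 higher in Stat5b-/- than in Stat5a-/-. Tested against a log2 change of 1, 2 genes were higher in Stat5b-/- and 5 in Stat5a-/- than in wt, and between the knockout lines 0 were higher and 1 lower. H2-Aa in Stat5a-/- against wt reversed to −0.0232 when libraries were scaled on chromosome 17 genes. Over all genes, that scaling gave 1103 higher and 7901 lower in Stat5a-/- against wt (2739 and 2254 otherwise) and 7259 and 1054 between the knockout lines (2269 and 2429). The covariate gave 1792 and 1678 in Stat5b-/- against wt (3348 and 3049) and 893 and 1234 between the knockout lines, and the test against 1 gave 634 and 727, 636 and 581, and 261 and 502. Scaling on chromosome 17 genes lowers Stat5a-/- values by construction, and with it 8 of the 10 X and Y box factors and acetyltransferases were called lower there (0 otherwise). Of the 12 differences in chain ratios, 10 kept their direction when any 1 library was left out.

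Replicate numbers did not pair the libraries: deviations of same-numbered libraries had a mean correlation of −0.0877 over 9 pairs and those of other pairs 0.0438 over 18. With the replicate number as a block, Cd74 in Stat5b-/- (0.269, adjusted p = 0.101) and H2-Aa in Stat5a-/- (0.513, adjusted p = 0.0502) lost their call and no other call of the 10 genes changed. Depth limits Ciita and H2-DMb1, which had as few as 5 reads in a library.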
